A study of Homo sapiens with 30 samples.

Results

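The BCL2 family decides at the outer mitochondrial membrane whether a stressed cell lives or dies, and 10 of its transcripts were followed here across human acute myeloid leukemia (AML) cell lines. The genes were taken by name and not by any measured value. They were the anti-apoptotic BCL2, MCL1, BCL2L1 (which encodes BCL-XL) and BCL2A1, the pore-forming effectors BAX and BAK1, and the BH3-only genes BCL2L11 (BIM), BBC3 (PUMA), PMAIP1 (NOXA) and BID. All 10 were listed among the 60675 genes of the overexpression series and the 58051 genes of the knockout series, and all 10 passed the filter on low counts in both. BCL2A1 passed it through Molm-14 libraries, since it held at most 3 counts in any library of MV4-11 or THP-1.

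RNA was sequenced in 30 libraries in 10 groups of n = 3. For overexpression, cells of the MV4-11 and Molm-14 lines received a lentivirus with an EF1α promoter, GFP and MIR1-2 host sequence that yields miR-1 (OE), or the empty vector with GFP (EV). For knockout, THP-1, MV4-11 and Molm-14 received lentiCRISPRv2 with a GFP marker and a single guide against MPC1 (KO), or its empty vector. The MPC1 protein is part of the mitochondrial pyruvate carrier. MV4-11 and Molm-14 carry an internal tandem duplication in FLT3, whereas THP-1 does not. All lines were grown in RPMI with serum, and the EV groups of both series carried a viral vector as well, so no group was free of transduction. Only 1 guide was used, the labels do not say whether a line was a clone or a mixed population, and they do not say whether replicates were separate cultures, so p-values measure the spread between these libraries only. In bulk RNA, fewer cells of a kind and less RNA per cell cannot be told apart.

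In the textbook pathway, anti-apoptotic proteins bind and restrain BAX and BAK and capture BH3-only proteins. BH3-only proteins are induced or activated by stress and either neutralise the anti-apoptotic members or activate the effectors directly, after which pores in the outer membrane release cytochrome c and caspases are switched on. NOXA binds mainly MCL1 and BCL2A1, whereas PUMA and BIM bind all the anti-apoptotic members. BAX, BBC3 and PMAIP1 are known p53 targets. AML cells commonly rely on BCL2 or MCL1, and BCL2 is the target of venetoclax. Transcript levels do not give the levels or the activity of these proteins, several of which are controlled after translation.

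The labels were checked first. In KO libraries MPC1 stood at 55.8% of the EV mean in THP-1, 48.4% in Molm-14 and 44.2% in MV4-11, with a mean of 24.8 ± 1.26 against 56.1 ± 2.33 counts-per-million (CPM) in MV4-11 (SD, n = 3). MIR133A1HG, the host transcript of MIR1-2, had 34 to 73 counts in each OE library and 0 in each EV library of that series. All 7 myeloid markers were detected in every library, and the other 15 markers (T cell, B cell, erythroid, epithelial and fibroblast) reached at most 8.3 CPM for KRT8 and 1.99 CPM for the rest. A library held 5339360 to 9106478 counts in the knockout series and 15543301 to 20939985 where miR-1 was overexpressed. In the overexpression series, 2 MV4-11 libraries stood apart in a list of 20 interferon-stimulated genes, with summed levels of 996 CPM in OE replicate 1 and 348 CPM in EV replicate 3 against 190 to 201 CPM in the other 4. The same 2 libraries were highest in 12 ATF4-linked stress genes, at 852 and 845 CPM against 380 to 516 CPM, and in 14 NF-kB genes, at 317 and 335 CPM against 215 to 252 CPM.

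Because miR-1 was the agent of the overexpression series, the 3′ UTRs of the members were searched for its seed, in the canonical transcripts of GENCODE 44 on GRCh38. The mature miR-1 is shown with its seed, bases 2 to 8, in capitals. The matches searched on the transcript strand were ACATTCCA (8mer), ACATTCC (7mer-m8), CATTCCA (7mer-A1) and CATTCC (6mer), each site being counted once as its longest class. Only 3 of the 10 members held a match, and these windows of 30 bases are shown with the matched bases in capitals.
hsa-miR-1-3p: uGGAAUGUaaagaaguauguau
BCL2, 7mer-m8, minus strand, chr18:63124559-63124588: ttaaatgtaaaACATTCCcaagtttggatc
BCL2L11, 7mer-A1, plus strand, chr2:111165117-111165146: gtgttggttttCATTCCAtttcgacgagca
BAK1, 6mer, minus strand, chr6:33573406-33573435: ttgtgagagccCATTCCcaccattctacct
BAK1, 6mer, minus strand, chr6:33573194-33573223: acccctgctccCATTCCtccctccggccat

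The BCL2 match lay at bases 4048 to 4054 of a 3′ UTR of 5279 bases, and the BCL2L11 match at bases 897 to 903 of 4213. MCL1, BCL2L1, BCL2A1, BAX, BBC3, PMAIP1 and BID held none of these matches. Of 19539 canonical 3′ UTRs, 7.8% held a 7mer-m8, 10.7% a 7mer-A1, 4.82% an 8mer and 20.5% a 6mer, so such matches are common. They are descriptions of the sequence and not shown to be sites of binding.

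The lines were compared at baseline, in their EV libraries. Levels of different genes were compared as CPM per kilobase of exon, within a series only, and their order depends on which length is taken. In the knockout series MCL1, which encodes a short-lived survival protein, was the highest member in all 3 lines by this length, with medians of 46.1 in MV4-11, 67.1 in Molm-14 and 68.1 CPM per kilobase in THP-1. In MV4-11 it was followed by BAX at 37.6 and BCL2 at 32.0 CPM per kilobase, whose ranges over the 3 libraries overlapped, and then by BID at 24.4. In Molm-14 the order below MCL1 was BID at 26.9, BCL2 at 19.5, PMAIP1 at 13.6 and BAX at 12.3 CPM per kilobase, with no overlap between these neighbours. In THP-1 it was BCL2 at 31.9, then BID at 16.9 and PMAIP1 at 16.7, which overlapped, and then BAK1 at 9.91 and BAX at 8.97 CPM per kilobase, which also overlapped. BCL2L1, BBC3 and BCL2A1 took the lowest 3 places in Molm-14 and THP-1, at medians under 4 CPM per kilobase. In MV4-11 BCL2L11, BBC3 and BCL2L1 had overlapping ranges between 3.38 and 5.99 CPM per kilobase, above BCL2A1. The exons of BAX cover 2587 bases in all but 795 in its canonical transcript, against 6222 and 3950 for MCL1. With canonical transcript lengths, an alternative chosen after seeing the data, BAX led in MV4-11 at 122.4 CPM per kilobase, above MCL1 at 72.6, while MCL1 still led in Molm-14 at 105.7 and in THP-1 at 107.3. BAX then also stood above BCL2 in Molm-14 and above PMAIP1 in Molm-14 and THP-1.

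In the overexpression series BAX led in MV4-11, with a median of 54.6 CPM per kilobase, ahead of BCL2 at 35.5 and MCL1 at 34.3, which overlapped. In Molm-14 MCL1 led at 47.9, ahead of BAX at 19.0 and BCL2 at 17.5 CPM per kilobase, which overlapped. The ratio of BCL2 to MCL1 per kilobase was 0.974 to 1.11 in MV4-11 EV libraries and 0.341 to 0.384 in Molm-14 EV libraries of this series. In the knockout series it was 0.695 to 0.758 in MV4-11, 0.272 to 0.307 in Molm-14 and 0.44 to 0.496 in THP-1, so that the 3 lines did not overlap. With canonical transcript lengths these ranges were 0.809 to 0.882, 0.317 to 0.357 and 0.512 to 0.577, and in the overexpression series BAX still led in MV4-11 and MCL1 in Molm-14, while BCL2 in MV4-11 lay above MCL1 without overlap.

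BAX was the member that differed most between MV4-11 and the other lines, apart from the sparsely counted BCL2A1. In the knockout series it stood at 98.7, 87.2 and 97.3 CPM in MV4-11 EV, at 32.3, 30.3 and 31.8 CPM in Molm-14 EV, and at 25.9, 20.6 and 23.2 CPM in THP-1 EV. No libraries of different lines overlapped. BAX was lower in Molm-14 than in MV4-11 (-1.59 ± 0.112 SE on the log2 scale). Its false discovery rate (FDR) in the edgeR quasi-likelihood test was 1.39e-12. The difference of THP-1 from MV4-11 was -2.02 ± 0.117 (FDR = 1.84e-14), and that of THP-1 from Molm-14 was -0.43 ± 0.124 (FDR = 0.00319). In the overexpression series the EV libraries had 144.0, 141 and 123 CPM in MV4-11 and 50.3, 47.3 and 49.3 CPM in Molm-14, a log2 difference of -1.47 ± 0.074 (FDR = 9.42e-13).

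BCL2 and MCL1 differed between MV4-11 and Molm-14 in opposite directions. BCL2 had 404, 444 and 401 CPM in MV4-11 EV of the knockout series and 230.2, 258 and 246 CPM in Molm-14 EV, a log2 difference of -0.77 ± 0.0779 (FDR = 2.09e-09). MCL1 had 287, 289 and 280.3 CPM in MV4-11 EV and 417, 415 and 425 CPM in Molm-14 EV, a difference of 0.55 ± 0.0685 (FDR = 7.43e-08). Neither gene overlapped between these groups, and the overexpression series gave -1.01 ± 0.0479 for BCL2 (FDR = 3.12e-13) and 0.48 ± 0.0585 for MCL1 (FDR = 5.14e-07). THP-1 EV had 378, 402 and 421 CPM of BCL2 and 424, 440.1 and 419 CPM of MCL1. Its BCL2 was higher than in Molm-14 by 0.71 ± 0.0781 on the log2 scale (FDR = 6.89e-09), and its difference from MV4-11 was not called (-0.06, 95% CI -0.22 to 0.10, FDR = 0.523). Its MCL1 was higher than in MV4-11 by 0.58 ± 0.0686 (FDR = 2.62e-08), and its difference from Molm-14 was not called (0.03, 95% CI -0.11 to 0.17, FDR = 0.718).

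Among the BH3-only genes, BBC3 followed the same order of lines as BAX. It had 16.1, 10.8 and 15.6 CPM in MV4-11 EV, 8.91, 6.98 and 8.84 CPM in Molm-14 EV and 4.65, 5.38 and 6.7 CPM in THP-1 EV. These ranges did not overlap. The log2 difference from MV4-11 was -0.79 ± 0.191 in Molm-14 (FDR = 0.000737) and -1.36 ± 0.207 in THP-1 (FDR = 1.87e-06), and -0.82 ± 0.15 in Molm-14 of the overexpression series (FDR = 8.61e-05). The difference between THP-1 and Molm-14 was -0.57 ± 0.222 (FDR = 0.0254). That call was lost without EV replicate 1 or 3 of Molm-14, or replicate 1 or 2 of THP-1, with an FDR of up to 0.117, and with DESeq2 (FDR = 0.0639).

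PMAIP1 ran the other way in the knockout series, at 21.6, 21.0 and 23.4 CPM in MV4-11 EV, 34.3, 28.2 and 29.7 CPM in Molm-14 EV and 36.3, 44 and 36.4 CPM in THP-1 EV. No libraries of different lines overlapped. It was higher than in MV4-11 by 0.48 ± 0.115 on the log2 scale in Molm-14 (FDR = 0.000747) and by 0.82 ± 0.114 in THP-1 (FDR = 4.14e-07), and higher in THP-1 than in Molm-14 by 0.35 ± 0.111 (FDR = 0.00713), a call that was lost without THP-1 EV replicate 2 (0.25, FDR = 0.0764). In the overexpression series PMAIP1 had 18, 20.3 and 25.2 CPM in MV4-11 EV and 16, 20.9 and 16.7 CPM in Molm-14 EV, which overlapped, and the difference was not called (-0.24, 95% CI -0.61 to 0.12, FDR = 0.227). Whether the line difference of PMAIP1 itself differed between the series was not tested. BID, which caspase-8 cleaves to link death receptors to mitochondria, was lower in THP-1 (79.4, 74.9 and 69.2 CPM) than in MV4-11 (127, 105 and 108 CPM) (log2 fold change -0.60 ± 0.0907, FDR = 1.54e-06) and than in Molm-14 (119, 112 and 120.0 CPM; -0.65 ± 0.0907, FDR = 4.41e-07). Between Molm-14 and MV4-11, BID was called only in the overexpression series (-0.25 ± 0.0529, FDR = 0.000353, against 0.05, FDR = 0.679, in the knockout series).

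BCL2L11, whose product BIM activates the effectors, was called higher in Molm-14 than in MV4-11 in the overexpression series (0.36 ± 0.0648, FDR = 5.57e-05) and missed the threshold in the knockout series (0.49, 95% CI -0.05 to 1.03, FDR = 0.105). Its level in THP-1 EV was 49.2, 52.2 and 76.6 CPM, above the 25.4, 40.4 and 35.8 CPM of MV4-11 EV without overlap (0.81 ± 0.252, FDR = 0.011), and the call was lost without MV4-11 EV replicate 1 or THP-1 EV replicate 3 (FDR = 0.059 and 0.054). BAK1, the other effector, was called higher in Molm-14 than in MV4-11 in the overexpression series (0.26 ± 0.0762, FDR = 0.00592) and not in the knockout series (0.06, 95% CI -0.22 to 0.34, FDR = 0.718), and in THP-1 it missed the threshold against MV4-11 (0.30 ± 0.137, FDR = 0.0571), which it passed with DESeq2 (FDR = 0.0428).

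BCL2A1 was near the detection limit outside Molm-14. The EV libraries of the overexpression series had 33, 16 and 16 counts in Molm-14 and 0, 0 and 1 count in MV4-11. Scaled by library size, the ratio of the summed counts was 71.9 with an exact 95% interval of 12.5 to 2884 that covers counting error only. In the knockout series the EV libraries had 11, 9 and 15 counts in Molm-14, 2, 0 and 0 in MV4-11 and 3, 2 and 2 in THP-1. There Molm-14 exceeded MV4-11 by a ratio of 17.6 (4.52 to 151) and THP-1 by 4.4 (1.92 to 11.7). Because BCL2A1 passed the filter on low counts through Molm-14 libraries, a higher level there was partly built in. The ratios describe the counts and are no independent test of a line difference. A count of 0 allows up to 3 counts in a library.

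Without BCL2A1, 8 of 9 members were called between Molm-14 and MV4-11 in the overexpression series, where 64.8% of all genes tested were called, and 6 of 9 in the knockout series, where 61.7% were. Between THP-1 and MV4-11 7 of 9 were called (67.5% of all genes), and between THP-1 and Molm-14 5 of 9 (69.6% of all genes), so that the share of members was above that of all genes in 3 of these 4 comparisons and below it in 1. The least stable call between lines was that for BCL2L1 in THP-1 against MV4-11 (-0.39 ± 0.172, FDR = 0.0474). It was lost in 5 of 6 other settings, DESeq2 among them (FDR = 0.115), and in 4 of the 6 fits without a library. BCL2L1 in Molm-14 against MV4-11 of the knockout series (-0.41 ± 0.169, FDR = 0.0389) was lost in 4 of 6 such fits but kept in 6 of 6 other settings. In the overexpression series that difference (-0.26 ± 0.0855, FDR = 0.0112) was kept in 5 of 6 such fits. The comparisons between lines of the knockout series share the EV libraries of each line.

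**Figure D1:**
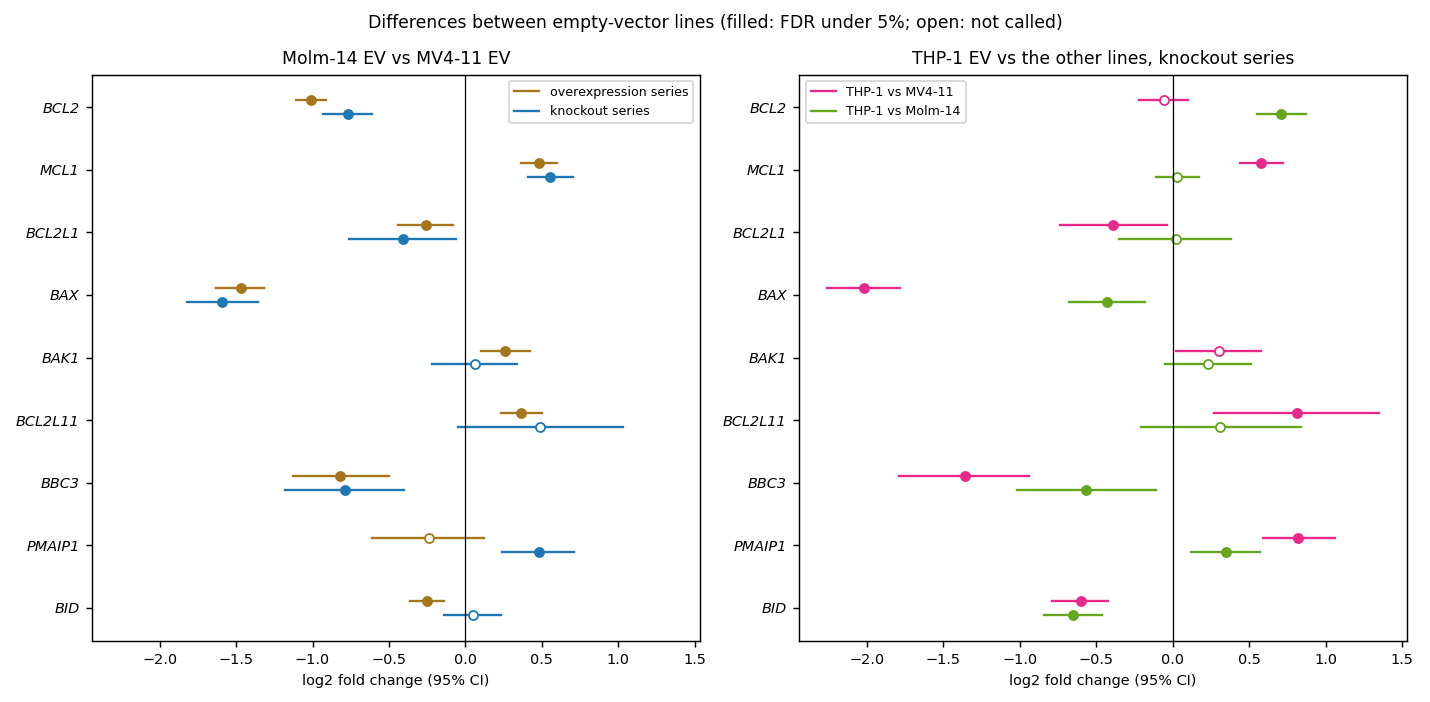
Log2 fold change (x axis) with its 95% confidence interval for 9 members (y axis, BCL2A1 left out for its low counts) between EV groups of n = 3 libraries, with filled circles for an FDR under 5%. In both series BAX, BCL2 and BBC3 lie to the left of 0 and MCL1 to the right for Molm-14 against MV4-11, and THP-1 is lowest in BAX at -2.02 against MV4-11.

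Deletion of MPC1 in MV4-11 was accompanied by less BAX and more PMAIP1 transcript. BAX, an effector that moves from the cytosol to the mitochondrial membrane, was at 98.7, 87.2 and 97.3 CPM in EV and at 66.3, 79.6 and 70.1 CPM in KO. Every KO library lay below every EV library. BAX fell by 0.39 on the log2 scale (-0.39 ± 0.105 SE, 95% CI -0.61 to -0.17, edgeR FDR = 0.0304).

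PMAIP1, whose product NOXA binds MCL1, was at 21.6, 21.0 and 23.4 CPM in EV and at 30.4, 30.8 and 31.4 CPM in KO. The groups did not overlap, and the KO libraries lay closer together than the EV libraries. PMAIP1 rose by 0.49 on the log2 scale (0.49 ± 0.114, 95% CI 0.26 to 0.73, FDR = 0.0131). These were 2 of the 10 members, where 5.41% of all genes tested were called.

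BAK1, the effector that resides in the mitochondrial membrane, had 18.6, 15.2 and 19.0 CPM in EV and 11.4, 14.3 and 13.3 CPM in KO. These groups did not overlap either, and with BAX and PMAIP1 it made 3 members without overlap, where 24.1% of all genes had none. Its difference was as large as that of BAX but missed the threshold (-0.43 ± 0.142, 95% CI -0.72 to -0.14, FDR = 0.0717). BID had 127, 105 and 108 CPM in EV and 133, 140.2 and 123 CPM in KO, which overlapped, and its difference of 0.22 ± 0.0879 was not called (FDR = 0.135) except without EV replicate 1 (0.31, FDR = 0.032). BCL2L11 had 25.4, 40.4 and 35.8 CPM in EV and 21.5, 20.8 and 30.2 CPM in KO, with a wide interval for the difference (-0.48, 95% CI -1.05 to 0.09, FDR = 0.31). BCL2, MCL1, BCL2L1 and BBC3 overlapped between the groups, at differences of 0.08, 0.08, -0.01 and -0.16 with FDRs of 0.521 to 0.995. The 95% intervals were -0.07 to 0.24 for BCL2 and -0.06 to 0.22 for MCL1, so a change of either by 0.25 or more on the log2 scale lay outside them. BCL2A1 had 2 counts in all EV and 6 in all KO libraries together. The median log2 fold change of the members was 0.03, beside 0.015 over all genes tested.

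**Figure D2:**
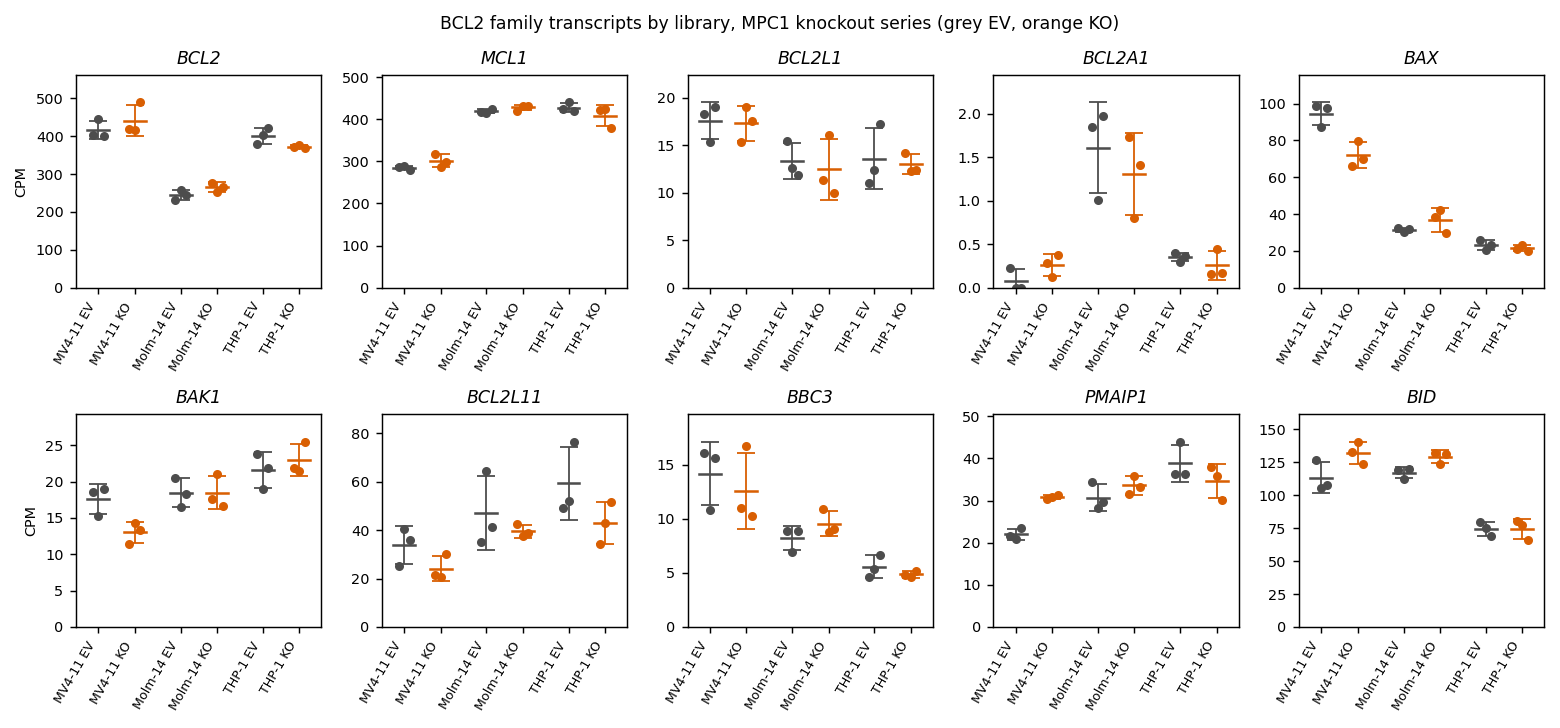
CPM (y axis, linear, from 0, a separate scale per gene) of the 10 members in the 6 groups of the knockout series (x axis), with a point per library and bars for the mean ± SD of n = 3. In MV4-11 the KO points lie below the EV points for BAX and BAK1 and above them for PMAIP1. BAX differs more between MV4-11 and either other line than any member does between KO and EV.

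Base composition moved with this comparison. Over 9803 well-counted genes, the log2 fold change of MV4-11 KO against EV had a Pearson correlation of -0.23 with the GC content of the transcript. The correlation of each library's deviation with GC was 0.44, -0.13 and 0.31 in the EV libraries and -0.5, 0.22 and -0.34 in the KO libraries. BAX and BAK1 have GC-rich transcripts (60.8% and 58.6%), whereas that of PMAIP1 is GC-poor (36.7%). With offsets for GC and length in the fit, an alternative chosen after seeing the data, BAX kept its size (-0.41 ± 0.0788, FDR = 0.00163), BAK1 was called (-0.42 ± 0.112, FDR = 0.0221), and PMAIP1 was smaller and was no longer called (0.30 ± 0.0986, FDR = 0.0596). Single libraries mattered as well. BAX missed the threshold without EV replicate 1, EV replicate 3, KO replicate 1 or KO replicate 3 (FDR = 0.0512 to 0.186), and PMAIP1 without EV replicate 2 or KO replicate 1 (FDR = 0.0612 and 0.054), while the log2 fold changes stayed between -0.47 and -0.33 for BAX and between 0.46 and 0.54 for PMAIP1.

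**Figure D3:**
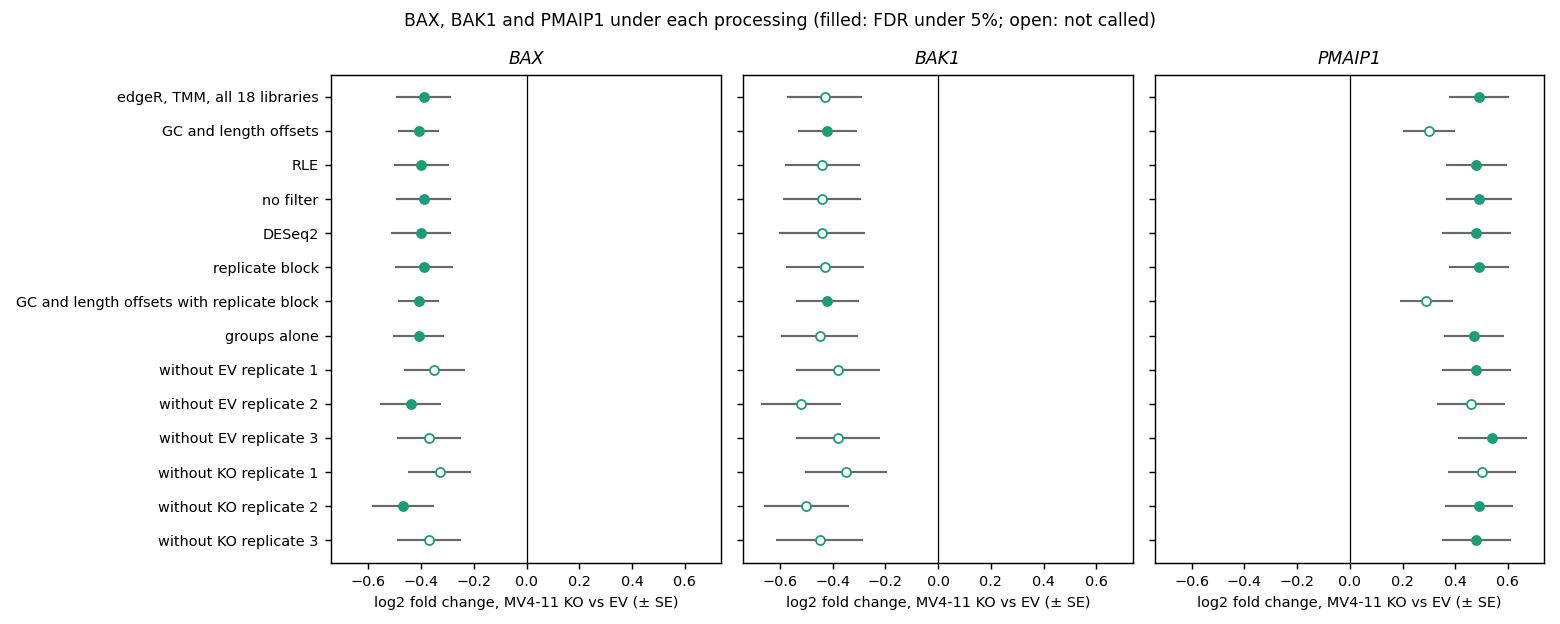
Log2 fold change of MV4-11 KO against EV ± SE (x axis) for BAX, BAK1 and PMAIP1 under each processing (y axis), with filled circles for an FDR under 5%. BAX and BAK1 stay left of 0 and PMAIP1 right of 0 throughout, PMAIP1 is lowest at 0.29 and 0.30 with GC and length offsets, and many fits without a library lie past the threshold.

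In Molm-14 and THP-1, no member was called between KO and EV, where 2.4% and 0.0897% of all genes tested were called. At an unadjusted p under 0.05 the count was also 0 of 10 in each line, where 10.7% of all genes in Molm-14 and 8.01% in THP-1 had such a p, and DESeq2 also called 0 of 10 in both. BAX in Molm-14 was at 32.3, 30.3 and 31.8 CPM in EV and at 38.4, 42.3 and 29.5 CPM in KO. The KO libraries lay on both sides of the EV libraries (0.23, 95% CI -0.01 to 0.47, FDR = 0.509). PMAIP1 in Molm-14 was at 34.3, 28.2 and 29.7 CPM in EV and 31.5, 35.9 and 33.3 CPM in KO (0.14, 95% CI -0.09 to 0.36, FDR = 0.767). BID was the only member of Molm-14 without overlap, at 119, 112 and 120.0 CPM in EV and 132, 124 and 132 CPM in KO, where 16.4% of all genes had none (0.14, 95% CI -0.04 to 0.32, FDR = 0.645).

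In THP-1, BAX was at 25.9, 20.6 and 23.2 CPM in EV and 21.1, 23.2 and 20.1 CPM in KO (-0.12, 95% CI -0.38 to 0.15, FDR = 0.844). PMAIP1 was at 36.3, 44 and 36.4 CPM in EV and 37.9, 35.8 and 30.2 CPM in KO (-0.17, 95% CI -0.39 to 0.06, FDR = 0.717). BCL2 did not overlap, at 378, 402 and 421 CPM in EV and 372, 376 and 369.8 CPM in KO (-0.10, 95% CI -0.26 to 0.06, FDR = 0.768), where 13.6% of all genes had no overlap. BCL2L11 had the widest interval of the members other than BCL2A1, at 49.2, 52.2 and 76.6 CPM in EV and 34.2, 42.9 and 51.8 CPM in KO (-0.46, 95% CI -1.0 to 0.08, FDR = 0.676). Its estimate was below 0 in all 3 lines, with a value of -0.27 in Molm-14, and in none was it called.

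The difference of the KO effect between lines was tested in the same model. The KO effect on BAX was higher in Molm-14 than in MV4-11 by 0.62 ± 0.158 on the log2 scale (95% CI 0.30 to 0.95, FDR = 0.042), the only member called of 10, where 1.48% of all genes were. With the replicate number as a block the FDR was 0.0599, and the call was lost in 9 of the 12 fits that left out a library. For BAK1 the difference was 0.44 ± 0.198 (FDR = 0.3) and for PMAIP1 -0.36 ± 0.16 (FDR = 0.303). Between THP-1 and MV4-11 no member was called, where 0.193% of all genes were, with 2 of 10 at an unadjusted p under 0.05, which 9.05% of all genes had. These were PMAIP1 (-0.66 ± 0.159, 95% CI -0.98 to -0.33, FDR = 0.0996), which DESeq2 called (FDR = 0.0476), and BAK1 (0.52 ± 0.196, FDR = 0.399). Between THP-1 and Molm-14 none was called, where 0.766% of all genes were, and none had an unadjusted p under 0.05, which 7.8% of all genes had. The effect on BAX was not shown to differ between THP-1 and MV4-11 (0.27, 95% CI -0.07 to 0.62, FDR = 0.676).

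**Figure D4:**
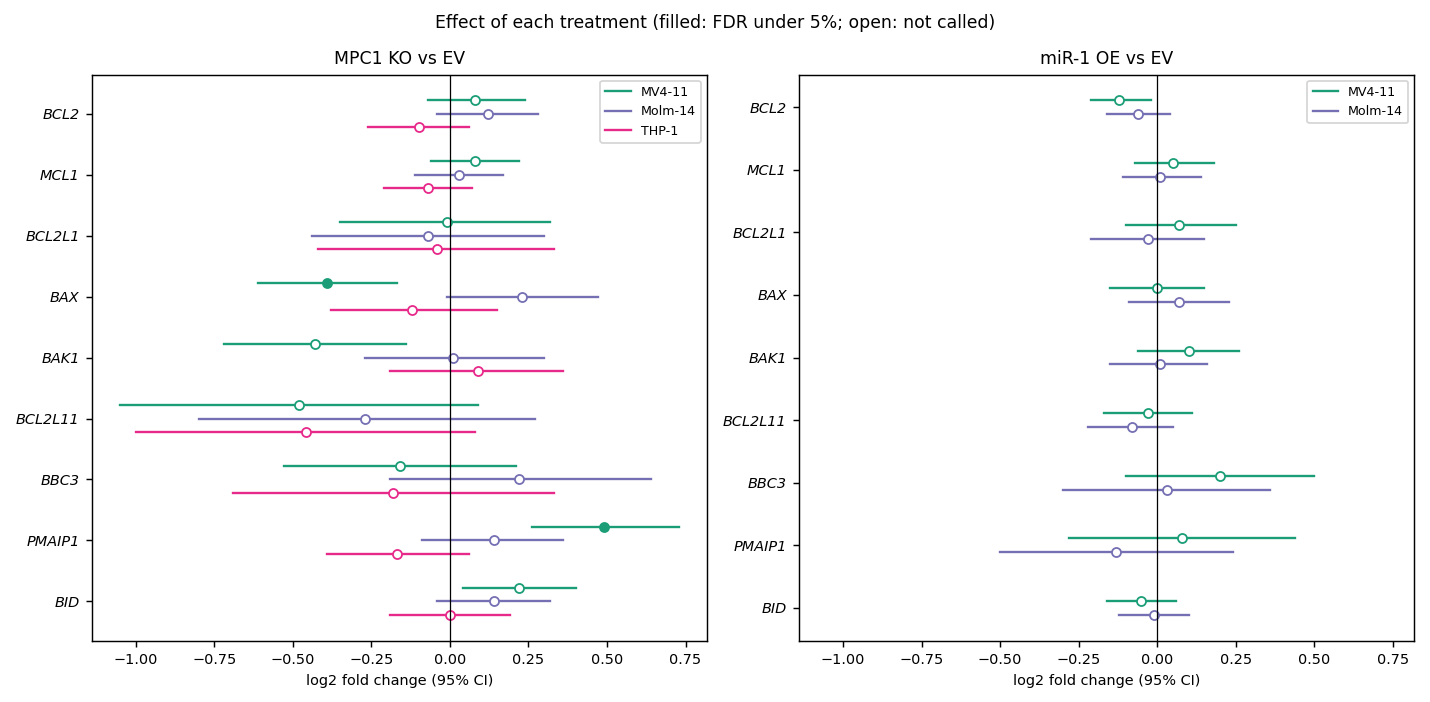
Log2 fold change (x axis) with its 95% confidence interval for 9 members (y axis, BCL2A1 left out for its low counts) in KO against EV of 3 lines and in OE against EV of 2 lines, n = 3 libraries per group, with filled circles for an FDR under 5%. Only BAX at -0.39 and PMAIP1 at 0.49 in MV4-11 KO are filled, and the intervals of OE are narrower than those of KO for most members.

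Overexpression of miR-1 was not accompanied by a called change in any member in either line, where 0.177% of all genes tested were called in MV4-11 and 0.0057% in Molm-14. DESeq2 also called 0 of 10 in both lines. At an unadjusted p under 0.05 there was 1 member in MV4-11, BCL2, beside 5.9% of all genes, and none in Molm-14, beside 4.38%. BCL2, which holds the 7mer-m8 match to the seed shown above, was at 433, 453 and 447 CPM in MV4-11 EV and at 427, 395 and 409 CPM in MV4-11 OE. Each OE library lay below each EV library, where 9.17% of all genes had no overlap, with the nearest of them at 427 and 433 CPM. The difference was -0.12 ± 0.0471 (95% CI -0.21 to -0.02, edgeR FDR = 0.723). In Molm-14 BCL2 was at 232, 221 and 211 CPM in EV and 209, 217 and 209.7 CPM in OE, which overlapped (-0.06, 95% CI -0.16 to 0.04, FDR = 1). BCL2L11, with a 7mer-A1 match, had a difference of -0.03 (95% CI -0.17 to 0.11) in MV4-11 and -0.08 (95% CI -0.22 to 0.05) in Molm-14. BAK1, with 2 6mer matches, had 0.10 (95% CI -0.06 to 0.26) and 0.01 (95% CI -0.15 to 0.16). Over the 2747 tested genes with a 7mer or 8mer match in the 3′ UTR, the median log2 fold change was 0.00882 in MV4-11, beside 0.013 over all 12562 tested genes with such a UTR, and -0.000173 beside 0.0025 in Molm-14.

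The members without a match gave small differences too. MCL1 was at 214, 200.9 and 226 CPM in MV4-11 EV and 241, 220.1 and 205 CPM in OE (0.05, 95% CI -0.07 to 0.18), and at 298, 289 and 306 CPM in Molm-14 EV and 306, 289 and 307 CPM in OE (0.01, 95% CI -0.11 to 0.14). BAX was at 144.0, 141 and 123 CPM in MV4-11 EV and 119, 147 and 141 CPM in OE, with means that differed by less than the spread. In Molm-14 BAX was at 50.3, 47.3 and 49.3 CPM in EV and 51.4, 51.2 and 51.4 CPM in OE, which did not overlap, as for 14.9% of all genes (0.07, 95% CI -0.09 to 0.23, FDR = 1). Without BCL2A1, the estimates lay between -0.12 and 0.20 in MV4-11 and between -0.13 and 0.07 in Molm-14. No member was called for a difference of the OE effect between the lines, where 0.0456% of all genes were, and none had an unadjusted p under 0.05, which 5.3% of all genes had.

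The 2 MV4-11 libraries that stood apart in interferon-stimulated, ATF4-linked and NF-kB genes also stood together at an edge of some members. These members were picked after their values were seen. For BCL2, BCL2L1, BAK1, BBC3 and BID the 2 libraries did not stand together at an edge. The share of all genes with such a pattern was not computed. PMAIP1 was at 27.8 CPM in OE replicate 1 and 25.2 CPM in EV replicate 3, against 18 to 21.3 CPM in the other 4 libraries. BAX was at 119 and 123 CPM, against 141 to 147 CPM. MCL1 was at 241 and 226 CPM, against 200.9 to 220.1 CPM. BCL2L11, which holds a seed match, was at 75.2 and 76.9 CPM, against 65.1 to 70.9 CPM. Since 1 of these libraries was in each group, the values partly cancelled in the comparison: without both, the difference of PMAIP1 was 0.04 (95% CI -0.22 to 0.31) in place of 0.08, and that of BCL2 was -0.14 ± 0.0474 (FDR = 0.296). The part of any of these 3 lists in the members' levels was not tested.

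**Figure D5:**
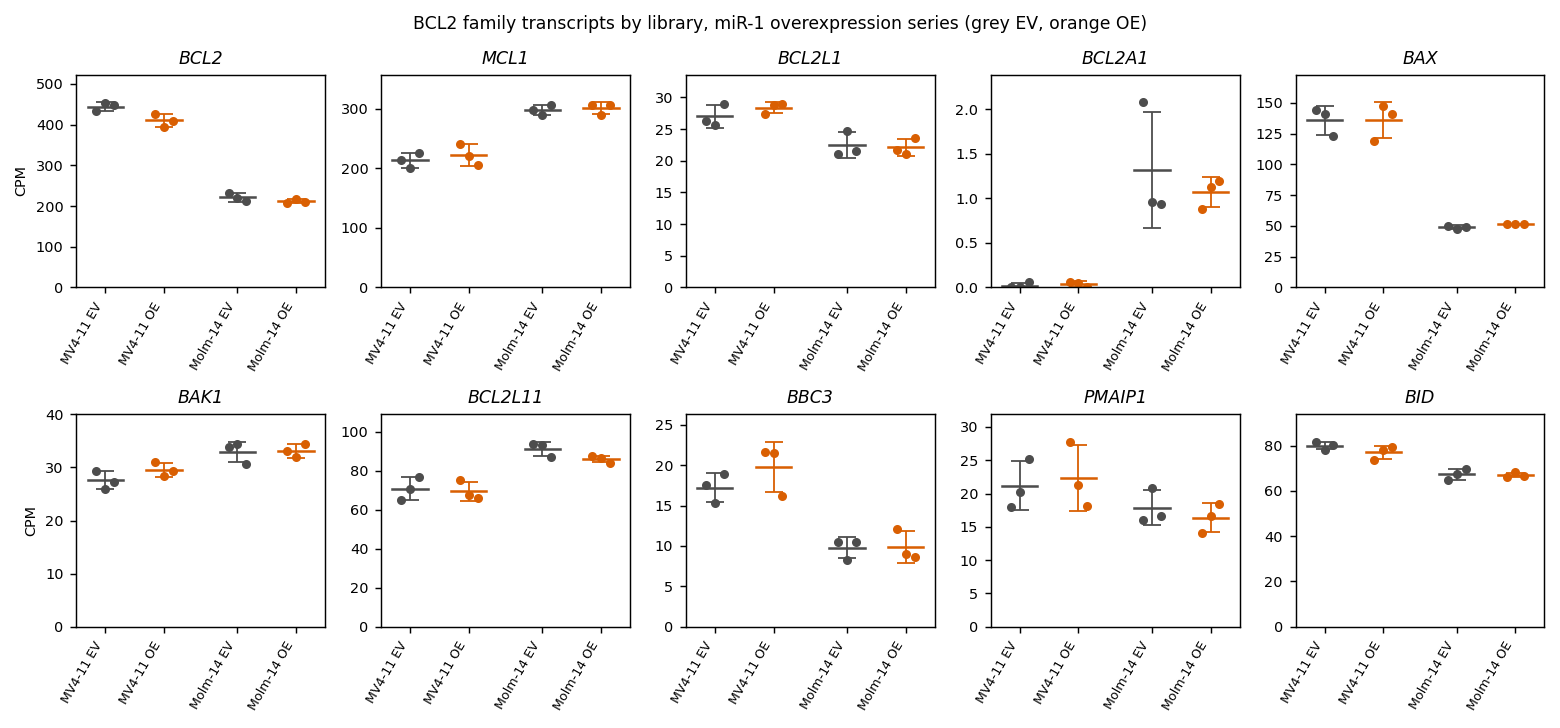
CPM (y axis, linear, from 0, a separate scale per gene) of the 10 members in the 4 groups of the overexpression series (x axis), with a point per library and bars for the mean ± SD of n = 3. OE and EV points lie close together within each line, and BAX and BCL2 are higher in MV4-11 and MCL1 in Molm-14. In MV4-11 the first OE point and the third EV point are the highest for PMAIP1, MCL1 and BCL2L11 and the lowest for BAX.

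Other genes of the pathway were examined through 7 lists. In MV4-11 KO, 10 of 13 further BCL2 relatives were tested and 5 were called, 4 of them higher, where 5.41% of all genes were called. BIK, a BH3-only gene of the endoplasmic reticulum, was at 29.2 ± 4.35 CPM in KO and 20.6 ± 3.5 in EV (SD, n = 3, log2 fold change 0.49 ± 0.129, FDR = 0.025). BNIP3L, a mitophagy receptor, was at 111 ± 8.12 and 86.8 ± 4.9 CPM (0.35 ± 0.0914, FDR = 0.0257), and BCL2L12 was lower, at 17.4 ± 2.63 and 26.3 ± 4.2 CPM (-0.58 ± 0.157, FDR = 0.0295). The other two, named after their values were seen, were the anti-apoptotic BCL2L10 (0.52 ± 0.139, FDR = 0.031) and the BH3-only gene BMF (0.34 ± 0.0963, FDR = 0.0379). So BH3-only and anti-apoptotic genes were both among those that rose. The median of the 10 was 0.307, beside 0.015 over all genes. All 5 were called with GC and length offsets, but the count fell to 0 of 10 without EV replicate 3 or KO replicate 1 and to 2 when the MV4-11 groups were fitted alone.

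Downstream of mitochondria, 2 of 16 caspase and mitochondrial pathway genes were called in MV4-11 KO, where 5.41% of all genes were. In this list 8 of 16 had an unadjusted p under 0.05, beside 22.3% of all genes. A value above 0 was found for 11 of 16, with a median of 0.194 beside 0.015 over all genes. BIRC2, which encodes the inhibitor of apoptosis cIAP1, rose from 69.3 ± 4.62 to 89.0 ± 9.14 CPM (0.36 ± 0.0936, FDR = 0.0245), and AIFM1, which encodes apoptosis-inducing factor, fell from 94.4 ± 2.93 to 76.2 ± 3.0 CPM (-0.31 ± 0.0888, FDR = 0.042). None of 10 death receptor genes was called in this fit or by DESeq2, with 3 at an unadjusted p under 0.05, which 22.3% of all genes had. TNFRSF1A was called lower with GC and length offsets and the replicate block (FDR = 0.037). Of 16 p53 targets, which share FAS and TNFRSF10B with the death receptors, GADD45A alone was called (-0.55 ± 0.16, FDR = 0.0418). Of 12 stress genes linked to ATF4, a factor that can induce PMAIP1, 6 had a value above 0, the median was -0.016, and the 3 called were lower: PSAT1 (-0.61 ± 0.11, FDR = 0.00187), TRIB3 (-0.57 ± 0.155, FDR = 0.03) and ATF5 (-0.68 ± 0.189, FDR = 0.0344). With GC and length offsets VLDLR of this list was called higher (FDR = 0.0106 at the lowest, against 0.198 without offsets), so that calls then lay in both directions. Of 12 tested NF-kB genes ICAM1 was called higher (0.70 ± 0.206, FDR = 0.0453), and none of 20 interferon-stimulated genes was called in this fit or by DESeq2, with 3 at an unadjusted p under 0.05. IRF7 was called higher with GC and length offsets, with and without the block (smallest FDR = 0.0108, against 0.106). An unadjusted p under 0.05 was also found for 4 of the 16 p53 targets, 5 of the 12 ATF4-linked genes and 5 of the 12 NF-kB genes. Of the 7 genes of this paragraph called without offsets or block, PSAT1 alone was called in each of 6 fits without a library, and TRIB3 was not called with GC and length offsets (FDR = 0.0602).

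In Molm-14 KO, none of the BCL2 relatives, caspase, death receptor, p53 or ATF4 lists had a gene called in the fit used throughout, where 2.4% of all genes were. The p53 target RRM2B (0.31 ± 0.0872, FDR = 0.0591) and the ATF4-linked DDIT4 (0.31 ± 0.0904, FDR = 0.0676) just missed the threshold there. RRM2B was called higher in the other 6 edgeR fits on all libraries and DDIT4 in 5 of them, and DESeq2 called both (FDR = 0.0255 and 0.0357). ASNS was called higher in 1, that with offsets and block (FDR = 0.0428). No gene of the p53 or ATF4 lists, RRM2B and DDIT4 included, was called in any fit that left out a library. TNF, the ligand of a death receptor, rose from 15.6 ± 0.869 to 39.6 ± 5.78 CPM (1.35 ± 0.127, FDR = 5.83e-08). CXCL8 was also called higher (1.31 ± 0.352, FDR = 0.0427), which made 2 of 12 NF-kB genes, and OAS3 was the 1 of 20 interferon-stimulated genes that was called (-0.97 ± 0.21, FDR = 0.00795). When a library was left out, CXCL8 missed the threshold in 6 of 6 fits and TNF in none. Of 93 tested genes of the 7 lists, 0 were called in THP-1 KO, where 0.0897% of all genes were. An unadjusted p under 0.05 was found for 14 of the 93, beside 8.01% of all genes. Of these 14, 7 were among the 12 ATF4-linked genes, whose summed level was 657, 655 and 616 CPM in KO and 597, 592 and 565 CPM in EV without overlap. That sum did not overlap in Molm-14 either, at 1190, 1210 and 1170 CPM in KO and 1110, 1040 and 1060 CPM in EV. In MV4-11 it overlapped. The NF-kB sum in Molm-14, of which TNF was part, and the interferon sum in MV4-11 were also higher in KO without overlap. Among single genes, 24.1% in MV4-11, 16.4% in Molm-14 and 13.6% in THP-1 had no overlap. No such share was computed for sums, so these differences are descriptions only. In THP-1, 10 of the 12 ATF4-linked genes had a value above 0, with a median of 0.294 beside 0.003 over all genes. DESeq2 called TRIB3 of that list higher (FDR = 0.0486) and APAF1, which encodes the core of the apoptosome, lower (FDR = 0.0459). APAF1 was also called lower with GC and length offsets, and ATF4 itself higher with offsets and block (FDR = 0.0485). Of 94 tested genes, this fit and DESeq2 called 0 in each OE comparison, with 4 in MV4-11 and 2 in Molm-14 at an unadjusted p under 0.05. Over all genes, this fit called 0.177% in MV4-11 and 0.0057% in Molm-14, and 5.9% and 4.38% had such a p. With the Molm-14 groups fitted alone, PSAT1 was called lower in OE (FDR = 0.0229). In MV4-11 OE, 19 of 19 tested interferon-stimulated genes had a value above 0 with a median of 1.856 beside 0.007 over all genes, which turned to -0.676, with 1 of 19 above 0, without OE replicate 1. Leaving out that library also moved the median of the 12 ATF4-linked genes from -0.012 to -0.66, with 0 above 0, and that of 13 NF-kB genes from -0.057 to -0.313, with 2 above 0. Without EV replicate 3 in its place, the ATF4-linked genes had a median of 0.618 with 12 of 12 above 0, and the NF-kB genes 0.099 with 13 of 13. Without both libraries the medians were 0.092 for the interferon-stimulated, 0.088 for the ATF4-linked and -0.082 for the NF-kB genes.

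The genes whose pattern over the 18 libraries of the knockout series was most like that of each member were found by the Pearson correlation of log2 CPM among 9426 genes with a mean of at least 10 CPM. The libraries fall into 3 cell lines, so these values mostly reflect the lines and carry no test. BAX was most like FDXR (r = 0.982), which is on the p53 target list, and FRAT1 (r = 0.981). BCL2 was most like KLHL6 (0.984) and TGFBR2 (0.977), MCL1 like LBR (0.99) and RRP15 (0.99), and BID like H2AC8 (0.982) and CLNS1A (0.981). BCL2L11 was most like PRRC2C (0.964) and IGF2R (0.96), and BBC3 like ADISSP (0.954) and SLC27A1 (0.954). BAK1 with OAF (0.906), PMAIP1 with CD1D (0.899) and BCL2L1 with PGAP3 (0.844) had lower values.

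Several members share exons with other annotated genes. On GRCh38, 41.3% of the exon bases of BCL2L1 (ENSG00000171552, chromosome 20, 31664452 to 31723989, minus strand) lie opposite ABALON, and 10.8% of those of BCL2L11 (ENSG00000153094, chromosome 2, 111119378 to 111168444, plus strand) lie opposite MIR4435-2HG. For MCL1 (ENSG00000143384, chromosome 1, 150560895 to 150579738, minus strand) 5.27% are shared with ADAMTSL4-AS1 on the same strand. The sources used here do not say whether counting used the strand, so reads of these pairs could have been joined or left out. BAX (ENSG00000087088, chromosome 19, 48954815 to 48961798, plus strand) and PMAIP1 (ENSG00000141682, chromosome 18, 59899996 to 59904305, plus strand) overlapped no other annotated exon. Among the others, BCL2 (ENSG00000171791) lies on chromosome 18 at 63123346 to 63320128 on the minus strand, with the seed match in its 3′ UTR. BAK1 (ENSG00000030110, chromosome 6, 33572547 to 33580293, minus strand) shares 4.11% of its exon bases with the opposite GGNBP1. BBC3 (ENSG00000105327, chromosome 19, 47220822 to 47232766, minus strand) contains 2 annotated miRNA genes, MIR3190 and MIR3191. BID (ENSG00000015475) spans 17734138 to 17774770 of chromosome 22 and BCL2A1 (ENSG00000140379) 79960892 to 79971196 of chromosome 15, both on the minus strand.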

How the data were processed

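The deposited counts were whole-number reads per Ensembl gene, not normalised, in 1 table per series. The authors trimmed reads with cutadapt 1.16, aligned them to GRCh38 with STAR 2.7.6a and assigned them with featureCounts 1.6.3, after a stranded kit with ribosomal RNA depletion (tools and versions per the submitters' processing notes). The tables list different numbers of genes, so no level was compared between them. Symbols, positions and 3′ UTRs came from GENCODE 44, and the miR-1 sequence from RefSeq.

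Counts were fitted with edgeR 4.0.16 in R 4.3.3: filterByExpr kept 17542 genes (overexpression) and 14490 genes (knockout), libraries were scaled with TMM, and each series was fitted as a whole with 1 mean for each group and robust quasi-likelihood dispersions. P-values were adjusted by Benjamini-Hochberg over all genes tested, and an FDR under 5% was called. CPM use TMM-scaled library sizes. The SE is the absolute log2 fold change over the square root of F. The fits were tested on simulated counts.

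Genes named outside the family are up to 3 called genes per list and comparison with the smallest FDR, and the 2 nearest in pattern per member. Others were named after their values were seen. These were BCL2L10, BMF and the list genes that only an alternative fit called in a comparison. The members, the lists and the tests were chosen with earlier results of these data known. Alternatives were RLE scaling, DESeq2 1.42.0, no filter, groups alone, each library left out, the replicate block, MV4-11 without both libraries high in interferon-stimulated genes, and, added after seeing the data, offsets for GC and length and, for the order of levels, canonical transcript lengths.

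Replicates differed by more than sampling noise (chi-square per degree of freedom 1.32 to 11.6 over 30 pairs), so all 30 libraries were kept. Same-numbered KO and EV libraries deviated together in every pair only in THP-1 (r = 0.38, 0.277 and 0.6). Even there, not every library correlated best with its own number. The block called no member in THP-1, as without it. Intervals of counts cover counting error only.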

Additional observations from a re-analysis of the deposited data

Results flagged for a closer look

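The effect of the MPC1 deletion on BAX differed between Molm-14 and MV4-11 by 0.62 on the log2 scale (95% CI 0.30 to 0.95, edgeR FDR = 0.042), a difference between lines tested in the model itself. BAX was lower in each of the 3 MV4-11 KO libraries than in each EV library, and in Molm-14 it was higher than each EV library in 2 of 3 KO libraries. The value was 0.54 with GC and length offsets (FDR = 0.0104) and 0.75 without Molm-14 KO replicate 3 (FDR = 0.00987), the library with the lowest BAX in that group. It ranged from 0.50 to 0.75 over the 12 fits that left out a library, 3 of which kept the call, with an FDR of up to 0.193. With the replicate block the FDR was 0.0599.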

How the results depend on the processing

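Over all alternatives, 175 of 190 counts of called members stayed within 1.5 times the count first given, and no called member changed direction. This tally includes counts of 0 that stayed at 0, and it does not register which member was called. In MV4-11 KO against EV the count of 2 ranged from 0 to 2 when a library was left out, and was 2 in every other fit, though with offsets for GC and length BAK1 replaced PMAIP1. For the difference of the KO effect between Molm-14 and MV4-11 the count of 1 ranged from 0 to 1 when a library was left out. With the replicate block, that count was 0 in place of 1, and the block moved no other count of members by over 1.5 times. Outside THP-1 the deviations of same-numbered libraries correlated at -0.707 to 0.305. In no line, THP-1 included, did every library correlate best with its own number. The block gave 1474 called genes in place of 784 in MV4-11 KO. For the difference between THP-1 and MV4-11, DESeq2 called 1 in place of 0. The causes were not tested. Over all genes, calls ranged over the alternatives from 133 to 1601 in MV4-11 KO (784 in the fit reported, 460 of them higher and 324 lower, against 769 and 832 with offsets and block), from 183 to 587 in Molm-14 KO (348), from 3 to 81 in THP-1 KO (13), from 9 to 123 in MV4-11 OE (31) and from 1 to 195 in Molm-14 OE (1). For the differences of the KO effect they ranged from 105 to 640 (215) for Molm-14 minus MV4-11, 18 to 126 (28) for THP-1 minus MV4-11 and 78 to 289 (111) for THP-1 minus Molm-14, and for the OE effect from 2 to 33 (8). The knockout series was sequenced less deeply and had wider intervals for most members, and BCL2A1 is limited by counts of 0 to 3 outside Molm-14.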
